A study of Mus musculus with 6 samples.

Results

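Fibroadipogenic progenitors are the connective tissue cells that lie between muscle fibres, and 10 genes that mark them or encode the matrix they secrete were described here. They were taken by symbol: Pdgfra, Pdgfrb, Col1a1, Col1a2, Col3a1, Dcn, Lum, Fbn1, Fap and Dpt, of 21887 protein-coding genes in all. Every peak in these genes and 10 kb either side was taken from 6 peak lists. The lists came from CUT&RUN, in which an antibody directs a nuclease to marked nucleosomes, on gastrocnemius muscle of male C57BL/6 mice aged 4 weeks. Conditional knockout mice (CKO) were Phf2 flox/flox;Acta1 Cre+ and controls (Ctrl) were Phf2 flox/flox;Acta1 Cre-. Both genotypes thus carried the floxed alleles, and the promoter of skeletal muscle actin drove Cre in CKO. H3K9me2 had 1 library in CKO and 1 in Ctrl, input had 1 library in CKO and 2 in Ctrl, and H3K4me3 had 1 library, in Ctrl. The title of that library calls it wild type, while its genotype label is Ctrl.

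Fibroadipogenic progenitors carry the receptor PDGFRA, respond to PDGF ligands, and supply most of the collagen of the tissue between the fibres. H3K4me3 lies at the starts of active genes and at many starts rich in CpG, and H3K9me2 is a mark of repressed chromatin. PHF2, a JmjC-family demethylase, has been reported to act on H3K9me2. The Acta1 promoter is active in muscle fibres, so Cre need not act in the interstitial cells that express these genes. Peak lists from whole muscle do not separate cell types, and fewer cells of a type and less of a mark per cell cannot be told apart.

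With 1 H3K9me2 library per genotype there was no replicate check and no test between genotypes. The 6 lists held 12832 peaks for H3K9me2 in CKO and 3703 in Ctrl, 16573 for H3K4me3, and 10931 for input in CKO against 3071 and 1309 in Ctrl. Fragments at the summit had a median of 9 for H3K9me2 in CKO, 6 in Ctrl and 52 for H3K4me3. For input the median was 7 in CKO and 6 in each Ctrl library. The labels do not say how the input was prepared. The lowest count in any list was 4 or 5 fragments, so a gene without a peak could still carry a few. Fold is the authors' ratio of summit to local background within a library, read here as having 1 added to each. This makes fold lower than the plain ratio, most of all where counts are low. The median fold was 5.42 for H3K9me2 in CKO and 4.91 in Ctrl, and 5.11 for input in CKO against 4.99 and 4.94 in Ctrl. The H3K9me2 lists were thus close to the input lists in both measures. Intervals on fragments are exact 95% Poisson intervals and cover counting error alone.

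The 10 genes with their flanks spanned 0.732 Mb and held 11 peaks in all. H3K4me3 in Ctrl gave 3 of them, at Fbn1, Col1a2 and Pdgfra. H3K9me2 gave 2 in CKO, at Col1a2 and Col3a1, and none in Ctrl. Input gave 3 in CKO, and 1 and 2 in the Ctrl libraries, all at Fbn1 and Pdgfrb. Col1a1, Dcn, Lum, Fap and Dpt, 5 of the 10, had no peak in any list, where 23.2% of all protein-coding genes had none.

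**Figure D1:**
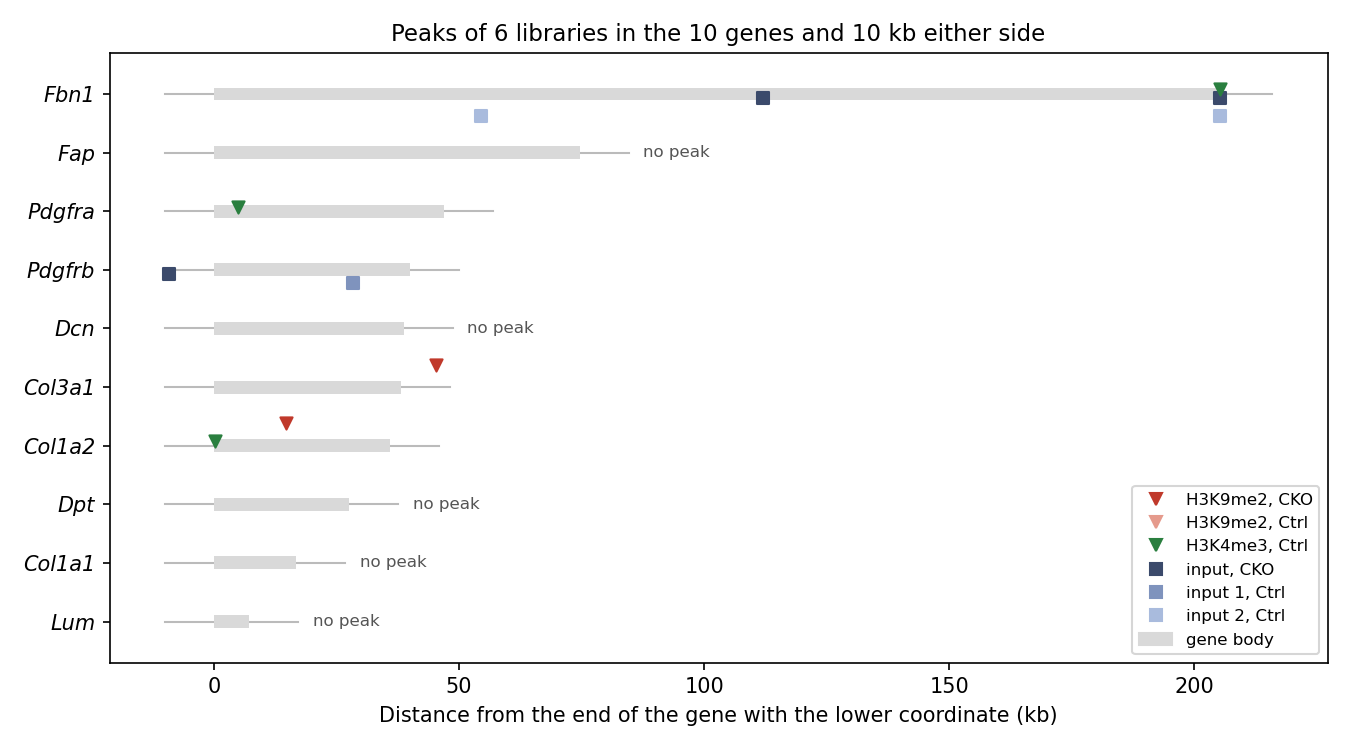
Each row is one of the 10 genes (grey bar) with 10 kb either side (line), and the horizontal axis is the distance in kb from the gene end with the lower coordinate. Symbols mark peak centres by library; 5 genes carry no symbol, and Fbn1 carries 5 of the 11 peaks.

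RefSeq promoter windows (GRCm38.p6, 250 bases before to 50 after the start) were matched for 5 members, Fbn1, Col1a2, Pdgfra, Dpt and Col3a1. They are shown because, among these 5, the members with H3K4me3 at the start differed from the others in CpG content. Capitals mark each CpG, and every window is written from 5′ to 3′ on the strand of its gene. Fbn1 is chr2:125506389-125506688 on the minus strand. On the plus strand, Col1a2 is chr6:4505368-4505667, Pdgfra is chr5:75152001-75152300, Dpt is chr1:164796413-164796712 and Col3a1 is chr1:45311288-45311587.
Fbn1: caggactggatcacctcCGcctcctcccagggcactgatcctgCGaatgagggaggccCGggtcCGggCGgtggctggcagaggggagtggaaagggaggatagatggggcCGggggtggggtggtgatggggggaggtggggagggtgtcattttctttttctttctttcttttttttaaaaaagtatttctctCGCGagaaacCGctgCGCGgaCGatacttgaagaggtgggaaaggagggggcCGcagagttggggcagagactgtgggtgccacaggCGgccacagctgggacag
Col1a2: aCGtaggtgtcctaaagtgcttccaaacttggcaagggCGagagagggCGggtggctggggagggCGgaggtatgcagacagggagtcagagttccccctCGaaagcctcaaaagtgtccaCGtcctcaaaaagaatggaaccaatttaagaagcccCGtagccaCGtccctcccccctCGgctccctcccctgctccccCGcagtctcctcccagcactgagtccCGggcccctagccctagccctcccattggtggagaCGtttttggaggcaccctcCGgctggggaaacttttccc
Pdgfra: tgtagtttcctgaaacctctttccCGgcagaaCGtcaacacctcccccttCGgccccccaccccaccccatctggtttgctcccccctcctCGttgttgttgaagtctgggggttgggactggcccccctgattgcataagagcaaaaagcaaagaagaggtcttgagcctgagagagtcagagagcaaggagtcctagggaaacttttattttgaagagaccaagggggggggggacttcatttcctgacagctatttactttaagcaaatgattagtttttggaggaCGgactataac
Dpt: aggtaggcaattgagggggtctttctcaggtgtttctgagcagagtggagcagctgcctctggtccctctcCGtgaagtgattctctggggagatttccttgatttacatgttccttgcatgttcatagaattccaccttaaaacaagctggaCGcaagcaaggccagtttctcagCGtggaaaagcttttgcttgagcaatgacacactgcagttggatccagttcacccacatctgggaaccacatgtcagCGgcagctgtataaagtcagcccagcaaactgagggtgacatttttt
Col3a1: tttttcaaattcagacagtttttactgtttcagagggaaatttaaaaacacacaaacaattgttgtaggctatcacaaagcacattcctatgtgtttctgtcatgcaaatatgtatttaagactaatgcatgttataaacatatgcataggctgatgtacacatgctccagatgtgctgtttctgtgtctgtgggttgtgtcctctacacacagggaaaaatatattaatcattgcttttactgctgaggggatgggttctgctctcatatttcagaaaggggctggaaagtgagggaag

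The windows of Fbn1 and Col1a2 held 14 and 13 CpG, and an H3K4me3 peak reached each start, at Fbn1 only with its last base. Those of Pdgfra, Dpt and Col3a1 held 5, 4 and 0, and none of these 3 starts had a peak within 2 kb. GC content ran the same way, at 60.3% and 61% for Fbn1 and Col1a2, against 51% for Pdgfra, 48.7% for Dpt and 37.7% for Col3a1. Over 21263 promoter windows of protein-coding genes the median was 13 CpG, and 4.63% had none, like Col3a1.

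The same order was seen in all promoters. H3K4me3 lay within 2 kb of 8.09% of starts with 0 to 4 CpG, 35.3% with 5 to 9, 74% with 10 to 14, 88.6% with 15 to 19 and 96.6% with 20 or more. Nothing particular to the members is read from 5 windows. Short motifs were searched on both strands. GGGCGG, the core of the GC box, was found in the windows of Fbn1, once, and Col1a2, in 2 places, and in 46.2% of all promoters. CCAAT was found in that of Col1a2 alone among the 5, in 38.2% of all. TATAAA was found in those of Col3a1, 117 bases before the start, and Dpt, 12 bases after the annotated start, and in 12.6% of all. A match is a run of letters and not a shown site.

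**Figure D2:**
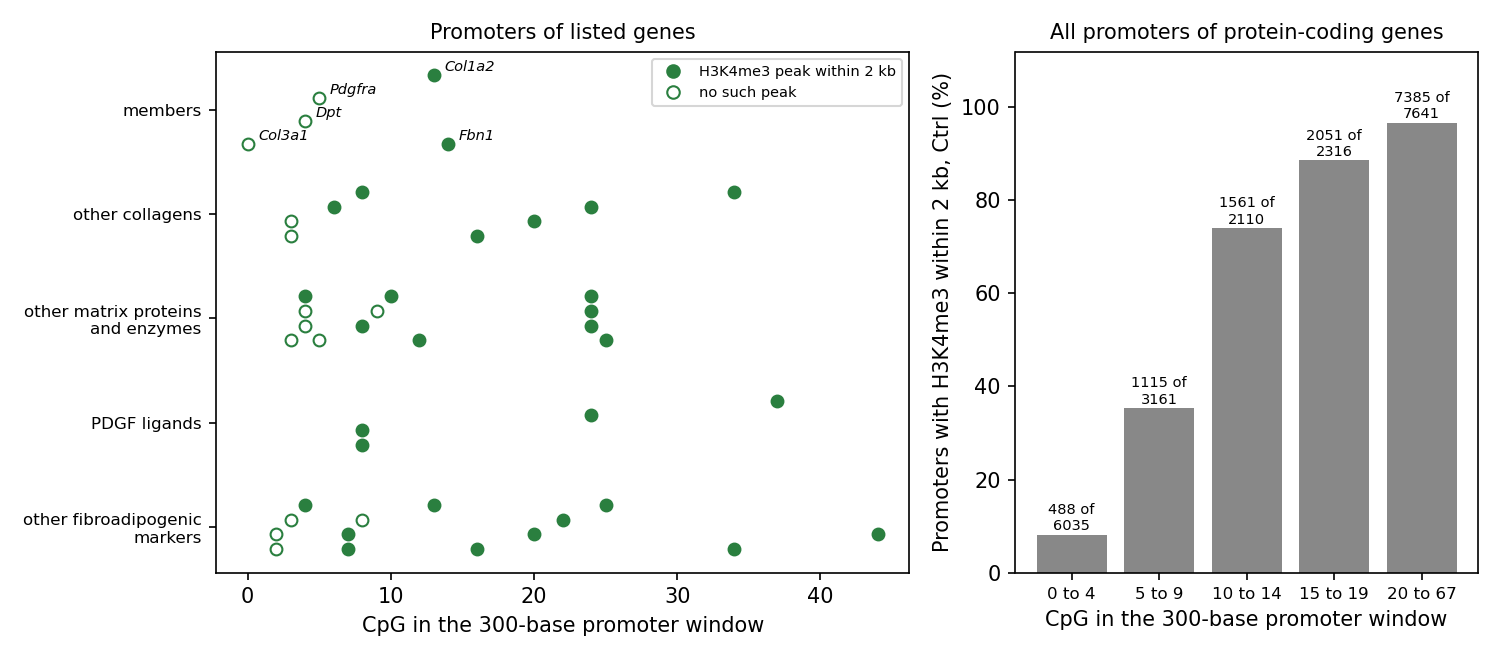
Left, CpG in the 300-base promoter window (horizontal axis) for listed genes in 5 rows, each point a RefSeq start, filled where an H3K4me3 peak of the Ctrl library lay within 2 kb. Right, the share in percent of all promoters with such a peak by CpG class, from 8.09% at 0 to 4 CpG to 96.6% at 20 or more; the filled members, Fbn1 and Col1a2, are those with 14 and 13 CpG.

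H3K4me3 at the gene start was found for 2 of the 10 members, against 60% of all protein-coding genes. A start meant each start in the promoter table or, for Pdgfrb, Col1a1, Dcn, Lum and Fap, either end of the gene. By listed starts it was 2 of 5 members, against 60.2% of 17492 genes, and by either end 0 of 5, against 59.3% of 4395 genes. With the whole gene and 10 kb either side the count was 3 of 10, against 68.1%. Per length, the member windows held 4.10 H3K4me3 peaks per Mb (0.846 to 12.0), against 11.8 in the windows of all genes. These counts come from 1 library, and no test was made on a list of this kind.

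Fbn1 (chromosome 2, 125300594 to 125506485, GRCm38.p6) encodes fibrillin-1, the main protein of the microfibrils on which elastic fibres form. Its H3K4me3 peak lay at chromosome 2, 125505344 to 125506438, with a fold of 13.7 and 119 summit fragments (98.6 to 142). It ran over the beginning of the gene and touched the listed start with its last base. That summit was at or above 93.2% of the peaks of the list, and the fold at or above 78.4%. An input peak lay under it in CKO, with a fold of 5.14 and 8 fragments (3.45 to 15.8), and in 1 of the 2 Ctrl inputs, with a fold of 4.90 and 8 fragments. The H3K4me3 summit thus held many more fragments than either input summit, and the intervals do not overlap. These are raw counts, not scaled for depth. Local background was also higher at the H3K4me3 peak, 7.76 fragments against 0.752 in the CKO input and 0.836 in that Ctrl input. The folds therefore differ less than the counts. Over all peaks of a list, the lowest local background was 0.482 fragments for H3K4me3, 0.371 for the CKO input and 0.292 for that Ctrl input. H3K9me2 had no peak at Fbn1 in either genotype.

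Col1a2 (chromosome 6, 4505618 to 4541543) encodes the alpha-2 chain of type I collagen, the fibrillar collagen of tendon, bone and muscle connective tissue. Its H3K4me3 peak, at chromosome 6, 4505397 to 4506437, covered the start with a fold of 6.64 and 12 summit fragments (6.20 to 21.0). This was a weak peak for its list, since 16.3% of H3K4me3 peaks had as few fragments or fewer, although it was broader than most at 1041 bp. Col1a1 (chromosome 11, 94936224 to 94953042), which encodes the partner chain of the same collagen, had no H3K4me3 peak at either end or within 10 kb. The nearest one lay 19.8 kb away inside Sgca, the alpha-sarcoglycan gene of muscle fibres, with a fold of 3.48 and 9 fragments. The 2 type I collagen genes thus differed in this list by a peak of 12 fragments.

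Pdgfra (chromosome 5, 75151322 to 75198206) encodes the receptor that defines fibroadipogenic progenitors in mouse muscle. Its H3K4me3 peak lay inside the gene, at chromosome 5, 75155633 to 75156769, and began 3.38 kb downstream of the listed start. It had a fold of 6.01 and 30 summit fragments (20.2 to 42.8). Of the H3K4me3 peaks, 18.4% had as low a fold or lower and 34.6% as few fragments or fewer. No input peak overlapped the Pdgfra peak, nor the Col1a2 peak. Because the Pdgfra peak was beyond 2 kb, the gene was not counted at the start.

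The other members had no H3K4me3 peak in the gene or its flanks. Pdgfrb (chromosome 18, 61045127 to 61085067) encodes the PDGF receptor of pericytes and other mural cells, and its nearest H3K4me3 peak was 80.9 kb away. Col3a1 (chromosome 1, 45311538 to 45349706) encodes type III collagen, and its nearest peak was 152 kb away at its neighbour Col5a2, with 8 fragments. Dcn and Lum encode decorin and lumican, small leucine-rich proteoglycans that bind collagen fibrils, and are neighbours on chromosome 10 (97479500 to 97518163 and 97565501 to 97572703). The same H3K4me3 peak was nearest to both, 166 kb from Dcn and 252 kb from Lum. Fap (chromosome 2, 62500936 to 62575509) encodes fibroblast activation protein, a surface serine protease, and its nearest peak was 59.5 kb away, between Fap and Dpp4, with 4 fragments. Dpt (chromosome 1, 164796663 to 164824274) encodes dermatopontin, a matrix protein that binds decorin, and its nearest peak was 74.6 kb away with a fold of 18.9 and 61 fragments. For the median protein-coding gene the distance was 0 kb, and for the median member it was 67.1 kb.

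Other genes of the same pathways were counted beside the 10 members, with no test of the difference. Of 42 such genes in 4 lists, 31 had an H3K4me3 peak at the start, beside 2 of 10 members and 60% of all genes. Other collagens had 8 of 10, led by Col16a1 at a fold of 14.4, Col12a1 at 11.1 and Col15a1 at 10.99. Col6a1 and Col6a3, 2 chains of the microfibrillar type VI collagen, were the exceptions, while Col6a2 had a fold of 9.13. Col6a3 had a peak in the gene or its flanks with a fold of 5.40, and Col6a1 had none there. Other matrix proteins and matrix enzymes had 11 of 16, led by Fn1 (fibronectin) at a fold of 17.0, Fbln5 (an elastic fibre protein) at 15.1 and Timp2 (a metalloproteinase inhibitor) at 12.1. Bgn, Fmod, Mfap5, Ogn and Postn had none at the start, although Bgn had a peak in the gene or its flanks with a fold of 10.6.

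Of the PDGF ligands, 3 of 4 had a peak at the start. Pdgfc had a fold of 15.4, Pdgfd 5.76 and Pdgfa 4.82. Pdgfb had none at either gene end, although 2 peaks lay in the gene or its flanks, the higher at a fold of 4.92. The fold does not rank the summits, since the Pdgfa summit held 116 fragments and that of Pdgfd 11. Other markers of fibroadipogenic progenitors had 9 of 12, led by Cd34 at 12.7, Twist2 at 12.5 and Tcf7l2 at 12.1. Ly6a, Pi16 and Tcf21 had none at the start. In the gene or its flanks Ly6a had a peak with a fold of 8.03 and Pi16 one with 3.44, and Tcf21 had none. Among the starts of the 42 genes that the promoter table lists, 19 of 19 with 10 or more CpG had H3K4me3 and 9 of 20 with fewer, where all promoters gave 91.1% and 17.4%. Among the members these counts were 2 of 2 and 0 of 3.

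Markers of other cells of the tissue were counted in the same way. Myofibre markers had 6 of 10, among them Des at a fold of 8.81 and Actn3 at 8.70, and Acta1, Ckm, Mb and Ttn had none at the start, although 9 of 10 had a peak in the gene or its flanks. Endothelial markers had 2 of 6, smooth muscle and pericyte markers 3 of 6, and blood and immune markers 0 of 6. Acta1 and Ckm, which fibres express at high level, had a peak only away from the start, at folds of 5.78 and 7.97. Expression was not measured here, and a missing peak at the start is not read as a measure of it.

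**Figure D3:**
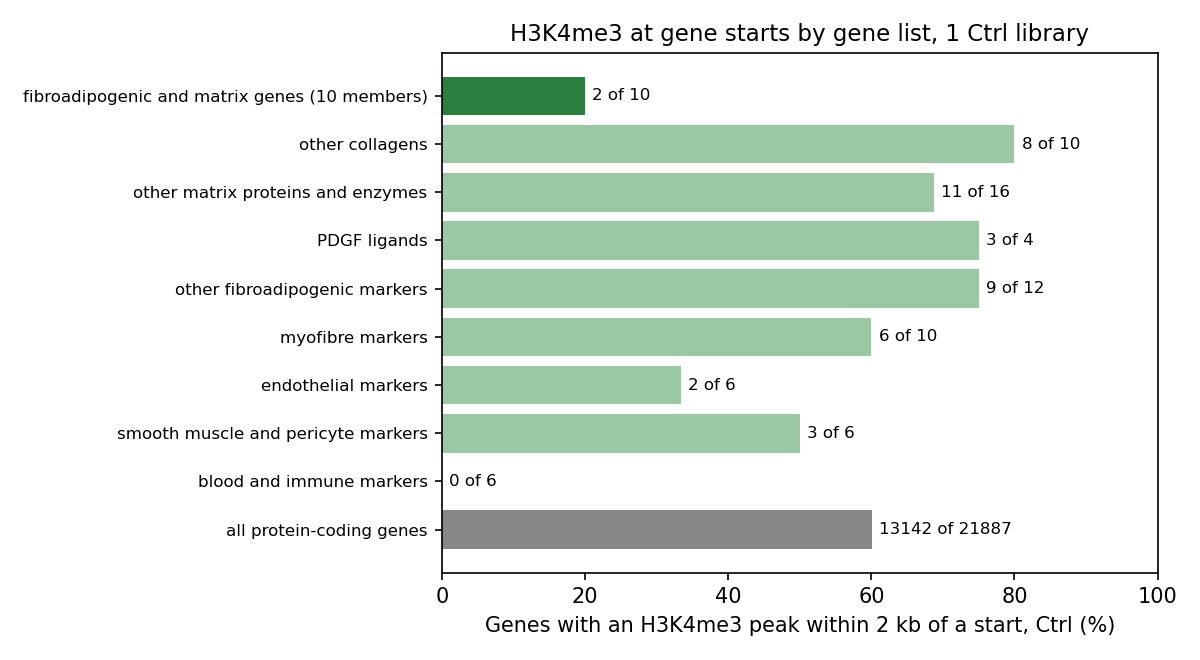
Horizontal bars give the share in percent of each gene list with an H3K4me3 peak within 2 kb of a start in the Ctrl library, with counts beside them. The 10 members stand at 2 of 10, other collagens at 8 of 10 and all protein-coding genes at 13142 of 21887.

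H3K9me2 was found at 2 of 10 members in CKO, where 19.4% of all protein-coding genes had a peak, and at 0 of 10 in Ctrl, where 6.34% had one. Per length, the member windows held 2.73 peaks per Mb in CKO (0.331 to 9.87) and 0 in Ctrl (0 to 5.04), both exact 95% Poisson intervals. The windows of all genes held 4.04 peaks per Mb in CKO and 1.11 in Ctrl. At those densities 2.96 peaks would fall in the member windows in CKO and 0.811 in Ctrl, so both counts were near the background of their own list. With both H3K9me2 lists cut by q to equal length, the CKO count in the member windows was 0, as in Ctrl. It was also 0 at a q of 1e-05 or less and among peaks at or over the median fold, so the contrast of 2 with 0 did not hold under these settings. The lowest local background recovered at any peak was higher in the CKO list, 0.544 fragments against 0.391 in Ctrl, and the CKO list was the longer one.

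The CKO peak at Col1a2 lay in the gene body, at chromosome 6, 4520032 to 4520390, and began 14.4 kb downstream of the start. It had a fold of 4.78 and 8 summit fragments (3.45 to 15.8), and 29.0% of the CKO peaks had as low a fold or lower. The nearest Ctrl H3K9me2 peak to Col1a2 was 537 kb away. The H3K4me3 peak at the Col1a2 start, in Ctrl, did not overlap it.

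The CKO peak at Col3a1 lay past the end of the gene, 7.03 kb downstream, at chromosome 1, 45356740 to 45357087, between Col3a1 and Col5a2. It had a fold of 3.39 and 5 summit fragments (1.62 to 11.7), and 0.608% of CKO peaks had as low a fold or lower. It was therefore among the weakest peaks of its list. Neither of these 2 peaks overlapped an input or an H3K4me3 peak. Among input-free H3K9me2 peaks the counts stayed at 2 of 10 genes in CKO, where 12.5% of all genes had one, and 0 of 10 in Ctrl, where 3.92% had one. Per length the input-free peaks numbered 2.73 per Mb in the member windows and 2.74 per Mb in those of all genes in CKO.

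**Figure D4:**
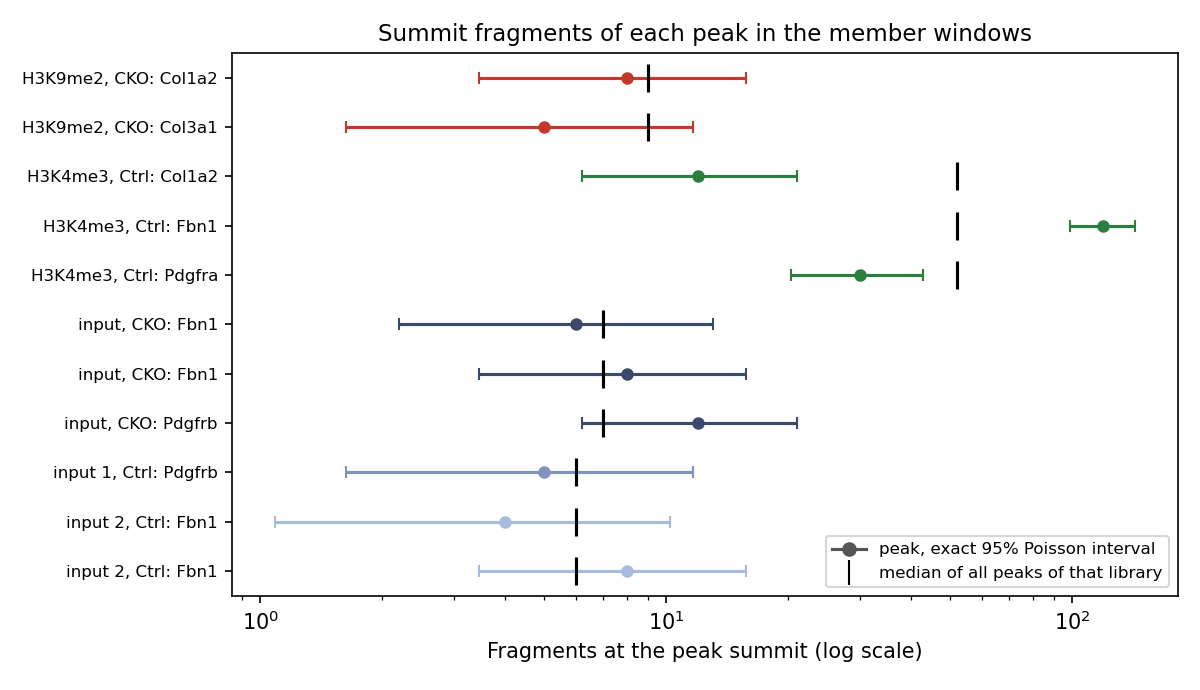
Fragments at the summit (horizontal axis, log scale) of each of the 11 peaks in the member windows, with exact 95% Poisson intervals; the black tick is the median of that library. The H3K9me2 peaks in CKO, at 8 and 5 fragments, lie below the median of 9, and 5 is the lowest count of that list. The Fbn1 H3K4me3 peak, at 119, stands above the median of 52.

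The distance from each gene to the nearest H3K9me2 peak gave a value for every member in both genotypes. In CKO it ran from 0 kb at Col1a2 to 1090 kb at Pdgfrb with a median of 90.8 kb, and in Ctrl from 53.7 kb at Dpt to 2241 kb at Col1a1 with a median of 279 kb. The medians over all protein-coding genes were 95.7 kb in CKO and 394 kb in Ctrl. Both PDGF receptor genes were far from any H3K9me2 peak, at 551 kb in CKO and 1537 kb in Ctrl for Pdgfra, and at 1090 kb in CKO and 619 kb in Ctrl for Pdgfrb. Pdgfrb, Fap and Dpt were the members whose nearest peak in CKO was not clearly closer than in Ctrl, Dpt at 53.7 kb in both. With more than 3 times as many peaks in the CKO list a shorter distance is no sign of a change at a gene. These distances are to called H3K9me2 peaks, whose median width was 389 bp in CKO and 388 bp in Ctrl. Signal outside such peaks was not examined, so a long distance does not show that the mark was absent.

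Near Dpt the peak was the same site in both genotypes. It lay at chromosome 1, 164742496 to 164742986 in CKO, with a fold of 6.43 and 11 fragments, and at 164742567 to 164742974 in Ctrl, with a fold of 6.52 and 10 fragments. The CKO input also had a peak there, with a fold of 7.05 and 9 fragments, so the site was also called in an input library. The CKO peak nearest to Fbn1, 53.0 kb away at Dut, overlapped peaks of all 3 inputs and of H3K4me3. The one nearest to Fap, 88.7 kb away at Gca, overlapped a CKO input peak and an H3K4me3 peak. That nearest to Lum and Dcn, 92.96 kb from Lum inside Epyc, a neighbouring gene for a proteoglycan of the same family, had a fold of 7.28 and 12 fragments and overlapped no peak of another list.

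**Figure D5:**
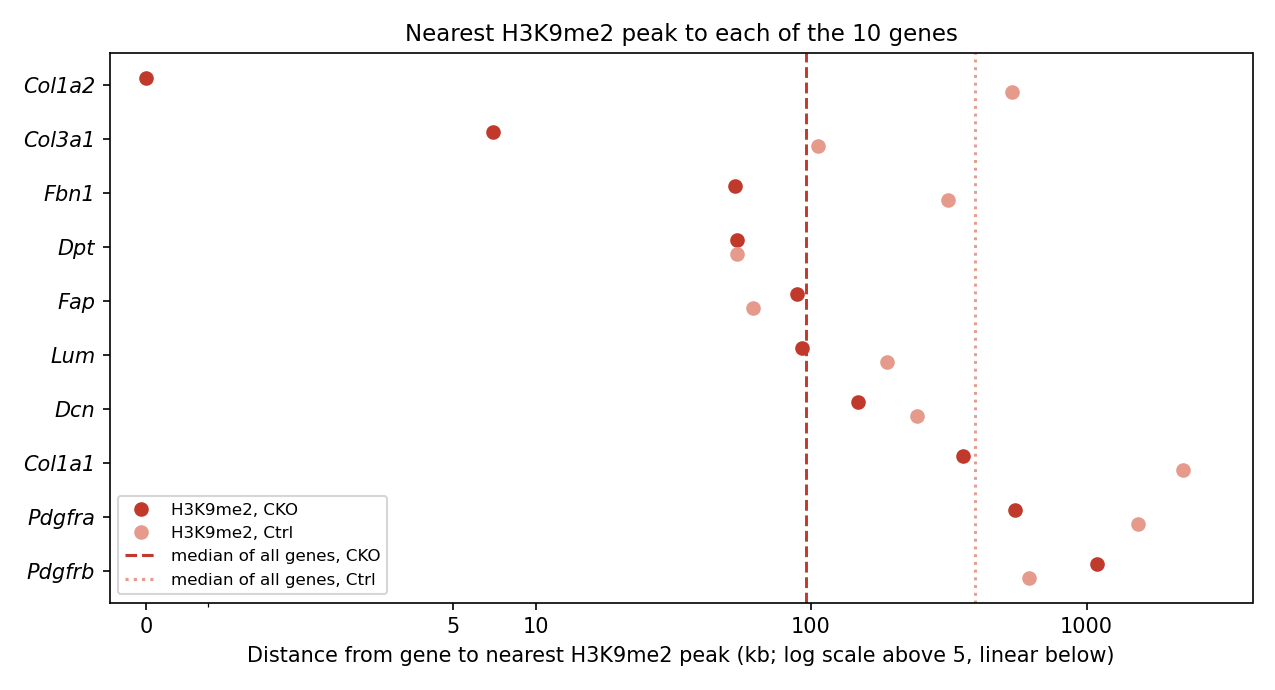
Distance in kb from each gene to the nearest H3K9me2 peak (horizontal axis, log scale above 5 kb and linear below), in CKO and in Ctrl, with lines at the medians over all protein-coding genes. Members lie on both sides of the lines, and Dpt has 53.7 kb in both genotypes.

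Peaks of the libraries labelled input fell at 2 of 10 members in CKO, where 39.8% of all genes had one. In Ctrl they fell at 1 member in input 1, where 11.8% of genes had one, and at 1 in input 2, where 5.37% had one. Besides the start of Fbn1, the CKO input had a peak in the body of Fbn1 with 6 fragments, and Ctrl input 2 had a different one there with 4. At Pdgfrb the CKO input had a peak 8.78 kb outside the gene, inside the neighbouring gene Cdx1, with a fold of 5.99 and 12 fragments (6.20 to 21.0). Ctrl input 1 had one in the Pdgfrb body with a fold of 4.33 and 5 fragments (1.62 to 11.7). No site at Pdgfrb was shared by 2 libraries, and neither genotype had H3K9me2 there.

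Among the 42 related genes, H3K9me2 free of input was found at 4 in CKO and at 4 in Ctrl, beside 2 and 0 of the 10 members. Shares over all genes were those given above, 12.5% and 3.92%. In CKO the highest were Pdgfd with a fold of 5.83 (chromosome 9, 6428204 to 6428545, in the gene body), Fn1 with 5.13 (chromosome 1, 71586693 to 71587035), Fbln5 with 4.53 and Pdgfb with 3.58. In Ctrl they were Col14a1 with 4.91 (chromosome 15, 55515698 to 55516059), Fbln5 with 4.80, Pdgfc with 3.98 and Col15a1 with 3.51. None of these summits held more than 8 fragments. No gene of the other fibroadipogenic markers had such a peak in either genotype.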

How the data were processed

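CUT&RUN peak lists of 6 libraries were used, grouped by the labels' titles and genotypes. Bowtie2, MACS2 and mm10 are named in the submitters' processing notes; their versions, thresholds and any control used in peak calling are not stated there. Whether libraries came from separate animals is not given either.

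Per peak the authors deposited a position, a fold, a −log10 p-value and −log10 q-value, and a score (10 times −log10 q). A summit offset was also given and was unused here. Fold was read as the ratio of summit to local background with 1 added to each. Only the autosomes, 1 to 19, and both sex chromosomes were used. Overlap meant 1 bp or more. Summit fragments were recovered from the deposited fold and −log10 p-value under a Poisson model. The recovered counts gave the listed −log10 p-value within 0.1% for 99.0% to 99.97% of peaks per list. Simulated data were made with the same formulas, so they checked the code and not the model.

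Gene positions were those of RefSeq on GRCm38.p6, which is mm10. Starts came from its promoter table, which held 5 members; for the other genes either end served. Counts of a list stand beside the share over all protein-coding genes, and no p-value was computed. The members and lists were chosen with earlier results of these data known. All members were named; of each related list, the 3 highest H3K4me3 folds and up to 3 input-free H3K9me2 genes per genotype. Genes of these lists without a peak at the start, Col6a2 and the myofibre genes were named after their values were seen. Intervals were exact, at 95%. The tools were matplotlib 3.10.9, scipy 1.17.1, pandas 2.3.3 and numpy 2.4.6 under Python 3.11.15.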

Additional observations from a re-analysis of the deposited data

How the results depend on the processing

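Of 56 alternatives over 10 results, 41 left the value within 1.5 times. When peaks under their list's median fold were left out, members with H3K4me3 at the start fell to 1 (Fbn1), related genes to 13, H3K4me3 peaks in the member windows to 1, H3K9me2 peaks in CKO to 0 with or without removal of input peaks, and Ctrl input peaks to 0. At q of 1e-05 or less, H3K9me2 peaks in CKO were 0 in both counts, CKO input peaks 1 and Ctrl input peaks 0. With flanks of 2 kb, H3K9me2 peaks in CKO were 1 in both counts; with 50 kb, H3K4me3 peaks were 5. With the CKO and Ctrl H3K9me2 lists made equally long by q, CKO held 0. Ctrl input peaks were 2 without replicate 1 and 1 without replicate 2, against 3 with both. H3K9me2 in Ctrl was 0 under each alternative, but a count of 0 cannot fall, so only the wider flanks could have changed it. Neither CKO H3K9me2 peak overlapped an input peak, so leaving out inputs could not change the input-free CKO count. Such alternatives are among the 41. The median CpG over the 5 member promoters was 5, and 4 over the 250 bases before the start, an alternative chosen after seeing the data. CpG at either gene end was not run, since the promoter table gives starts alone. The H3K9me2 peaks at Col1a2 and Col3a1 in CKO, with 8 and 5 summit fragments, were lost at both stricter thresholds; depth was not varied. No paired analysis was possible because each group but the Ctrl input has 1 library.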

Other observations

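At Fbln5, which encodes a protein of elastic fibres, an input-free H3K9me2 peak lay at the same site in the gene body in both genotypes. It spanned 101777883 to 101778250 on chromosome 12 in CKO, with a fold of 4.53 and 6 fragments, and 101777856 to 101778268 in Ctrl, with a fold of 4.80 and 6 fragments. None of the other genes in the 4 related lists had input-free H3K9me2 in both genotypes. Pdgfc, which encodes a PDGF ligand, had an H3K9me2 peak in both genotypes, of which the one in CKO overlapped an input peak.

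In the Ctrl H3K4me3 library, Col6a2 had 19 summit fragments at its start and Col6a1 no peak there or within 10 kb, although their products join in the same collagen.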
